A study of Mus musculus with 10 samples.

Results

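Txnip and its relatives Arrdc1, Arrdc2, Arrdc3 and Arrdc4 make up the alpha-arrestin family as taken here, chosen by symbol, and all 5 genes had a row among the 13492 genes measured in mouse tibialis anterior, a fast muscle of the lower hind limb. The compared groups were 5 libraries labelled Lrtm1 KO and 5 labelled Lrtm1 WT, which the series' design calls floxed controls. All mice were on a C57BL/6 background, 6 months old and fasted for 3 h. The labels place the libraries in litters 108 (2 KO and 1 WT), 110 (1 KO and 2 WT) and 112 (2 KO and 2 WT). The design text gives 4 per group where the labels give 5, and the sources used here do not name the Cre line behind the knockout. Nothing in the labels states in words that each library is a separate animal, so errors measure the spread between these samples.

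Alpha-arrestins are adaptor proteins. They hold membrane cargo with an arrestin fold and recruit ubiquitin ligases of the Nedd4 family, so that receptors and transporters are taken up from the cell surface. Txnip, the best known member, binds thioredoxin and lowers glucose uptake by drawing the glucose transporters GLUT1 and GLUT4 inward. Its gene and Arrdc4 are induced by glucose through the transcription factors MondoA (Mlxip) and ChREBP (Mlxipl) with their partner Mlx, and Txnip falls when insulin acts on muscle.

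The 250 bases before the annotated start of 3 members are shown, because Txnip and Arrdc4 are the members known to answer to glucose and Arrdc2 had the largest difference between the groups. They come from RefSeq (GRCm38.p6), which held all 5 members, and lie at chr3:96557707-96557956 on the plus strand for Txnip, chr7:68749239-68749488 on the minus strand for Arrdc4 and chr8:70839721-70839970 on the minus strand for Arrdc2. Each reads 5′ to 3′ on the gene's own strand. Capitals mark the letters of 4 motifs found on either strand: GTAAACA (FoxO factors), CACGTG (the E-box), CCAAT, which reads ATTGG on the other strand, and a spaced pair, CACGNG followed 5 bases on by another CACGNG, to which Mondo and ChREBP with Mlx are known to bind. The E-box lies inside the pair where N is T.
Txnip: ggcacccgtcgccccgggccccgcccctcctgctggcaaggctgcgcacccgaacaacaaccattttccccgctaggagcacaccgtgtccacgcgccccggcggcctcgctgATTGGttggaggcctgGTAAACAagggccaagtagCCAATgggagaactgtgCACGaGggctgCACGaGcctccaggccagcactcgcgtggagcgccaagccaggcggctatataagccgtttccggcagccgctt
Arrdc4: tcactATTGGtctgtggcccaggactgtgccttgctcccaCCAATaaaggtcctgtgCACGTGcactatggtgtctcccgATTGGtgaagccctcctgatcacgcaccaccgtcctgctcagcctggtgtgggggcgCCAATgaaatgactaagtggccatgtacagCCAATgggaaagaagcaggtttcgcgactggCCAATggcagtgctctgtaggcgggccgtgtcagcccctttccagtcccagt
Arrdc2: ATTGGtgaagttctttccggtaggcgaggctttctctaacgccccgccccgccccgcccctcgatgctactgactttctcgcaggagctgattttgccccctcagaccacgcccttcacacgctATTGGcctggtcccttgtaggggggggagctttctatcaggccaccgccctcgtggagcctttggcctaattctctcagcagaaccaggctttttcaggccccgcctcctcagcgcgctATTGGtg

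The Txnip window held the spaced pair once, starting 85 bases before the start, and among 32851 promoter windows of the same length 0.0457% held it. It also held GTAAACA at 121 bases (present in 3.17% of windows) and CCAAT at 137 and 102 bases (33.8%). The Arrdc4 window held CACGTG at 193 bases (6.02% of windows) and 6 matches to CCAAT, and the Arrdc2 window held 3 matches to CCAAT and none to the other motifs. AGAACA, part of the site of the glucocorticoid receptor, was in 16.1% of windows and in none of the members'. These are matches of letters only, and the motifs were chosen with the sequences in view.

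Values are adjusted log2 CPM, the base-2 logarithm of CPM (a gene's reads scaled to a common library total), after an adjustment by the authors. Depth is unknown, so no counting interval is given. The adjustment left no difference between litters beside genotype (largest coefficient 6.65e-14) and had emptied 3 further directions among the libraries, so 3 residual degrees of freedom remain. Standard errors (SE) and 95% intervals below count those removed terms. In that limma fit 41 of 12223 genes passed a Benjamini-Hochberg adjusted p of 0.05; all genes had a median log2 difference of -0.00. Lrtm1, the targeted gene, stood at 6.12 ± 0.10 log2 CPM in the libraries labelled KO and 5.68 ± 0.07 in those labelled WT (SD, n = 5 each), so it was higher under the KO label (log2 difference 0.44, limma adjusted p = 0.0344). Its adjusted p stayed under 0.05 without KO replicate 4 or WT replicate 4, and ranged up to 0.639 (without WT replicate 1) in the 8 other fits that left out a library. The higher level goes against the label as plainly read. Reads may fall outside a deleted part, which the sources used here do not describe. Neither this nor any other account was tested, and groups are therefore named as labelled. Fast fibre genes marked the tissue, with 132715 to 137144 CPM summed over 10 markers under the KO label and 119959 to 137351 under the WT label.

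The family was proposed with results of this comparison known. Differences of the members are therefore a description and carry no test. Arrdc2 and Arrdc1 were lower in every library labelled KO than in any labelled WT, while Txnip, Arrdc3 and Arrdc4 overlapped between the groups. Across all genes tested, 7.63% were lower under the KO label without overlap, 8.56% were higher without overlap, and 16.2% did not overlap in either direction. None of the 5 members was past the threshold, against 0.335% of all genes (0.27% higher and 0.0655% lower under the KO label). With the removed terms left uncounted, 1 of the 5, Arrdc2, was past it, against 8.62% of all genes (5.15% higher and 3.48% lower). Arrdc2 was also past it without KO replicate 1 (0.237% of all genes) and without WT replicate 1 (0.0409%), and both Arrdc1 and Arrdc2 were with genotype as the only term (21.3%). Since the comparison led to the family, nothing is read from these counts.

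**Figure D1:**
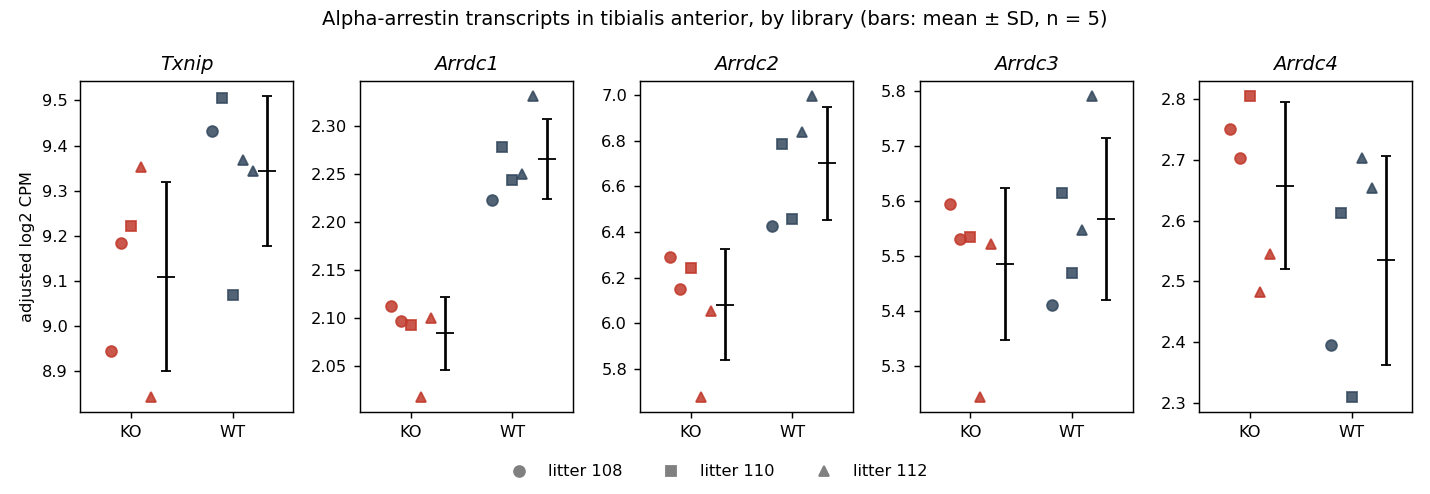
Adjusted log2 CPM (y axis, a separate scale for each gene) of the 5 alpha-arrestin genes in each library, labelled KO left and WT right, with marker shape for litter and the mean ± SD beside the points (n = 5). For Arrdc1 and Arrdc2 all libraries labelled KO lie below all labelled WT; KO replicate 4 is the lowest KO library for each Arrdc gene and the highest for Txnip.

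Txnip (ENSMUSG00000038393; chromosome 3, 96557957 to 96561883 on the plus strand, GENCODE M21 on GRCm38) was the most abundant member. It measured 493, 582, 597, 653 and 459 CPM in KO replicates 1 to 5, and 691, 727, 537, 661 and 650 CPM in WT replicates 1, 3, 4, 5 and 6. KO replicates 2, 3 and 4 lay within the range of the libraries labelled WT, so the groups overlapped. Means were 557 ± 79.4 CPM under the KO label and 653 ± 71.3 CPM under the WT label (SD, n = 5 each), a difference of -96.0 CPM. On the log2 scale the difference was -0.23 (SE 0.12, 95% interval -0.50 to 0.03). Litter by litter it came to -0.37 (108), -0.06 (110) and -0.26 (112). In fits with 1 library left out, the difference was -0.03 without KO replicate 5, the lowest library, and -0.46 without KO replicate 3. These fits kept the removed terms, which overlap with genotype once a library is gone. Their values are therefore not plain differences of the remaining means, and -0.46 lies beyond the difference within any litter.

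An antisense gene, Gm15441, overlaps Txnip on the opposite strand. The kit is strand-specific per the labels, but the sources used here do not say whether counting used the strand, and without it reads from the pair cannot be told apart. Gm15441 was scarce, at 0.427, 0.476, 0.484, 0.487 and 0.400 CPM in KO replicates 1 to 5 and 0.769, 0.832, 0.649, 0.761 and 0.799 CPM in WT replicates 1, 3, 4, 5 and 6. Unlike Txnip itself, it did not overlap between the groups. Its mean lay below the expression minimum of 0 log2 CPM, so it was not among the genes tested; fitted without the minimum, its log2 difference was -0.74 (SE 0.28, 95% interval -1.36 to -0.12). Its mean CPM over the 10 libraries was 0.101% of that of Txnip. Within the libraries labelled KO both genes had the same order, with replicate 5 lowest and replicate 4 highest. Within those labelled WT both had replicate 4 lowest and replicate 3 highest, but the order between them differed. Adjusted values vary in few directions, which all genes share, so nothing is read from these orders.

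Arrdc4 (ENSMUSG00000042659; chromosome 7, 68736995 to 68749241 on the minus strand), which like Txnip is induced by glucose and lowers glucose uptake in other cells, had its higher mean under the KO label, unlike Txnip. Its levels were 6.73, 6.51, 6.99, 5.59 and 5.84 CPM in KO replicates 1 to 5 and 5.26, 6.12, 4.96, 6.51 and 6.29 CPM in WT replicates 1, 3, 4, 5 and 6. The groups overlapped, with KO replicate 3 the highest library and WT replicate 4 the lowest. The log2 difference of 0.12 (SE 0.13, 95% interval -0.16 to 0.41) had no common sign within litters, at 0.33 (108), 0.34 (110) and -0.16 (112). In fits with 1 library left out, the value was -0.17 without KO replicate 3 and -0.11 without WT replicate 1. Each of these 2 libraries is the lone one of its label in its litter. Since the fits kept the removed terms, these values are not the differences within the remaining litters.

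Arrdc2 (ENSMUSG00000002910; chromosome 8, 70835129 to 70839720 on the minus strand) is a little studied adaptor for Nedd4 family ligases. Under the KO label it stood at 78.2, 70.9, 75.6, 51.1 and 66.4 CPM in replicates 1 to 5, and under the WT label at 85.9, 110, 87.8, 114 and 128 CPM in replicates 1, 3, 4, 5 and 6. The highest library labelled KO, replicate 1, lay below the lowest labelled WT, also replicate 1, by 0.14 on the log2 scale. Means were 68.4 ± 10.7 CPM for KO and 105 ± 17.9 CPM for WT (SD, n = 5 each), or 35% lower under the KO label. The log2 difference was -0.62 (SE 0.15, 95% interval -0.95 to -0.29), and 0.777% of the tested genes had a larger difference in either direction. By litter it came to -0.21 (108), -0.38 (110) and -1.05 (112), and in litter 112 both libraries labelled KO were the lowest of all 10 and both labelled WT the highest. Its spread was wide too: 4.6% of tested genes had a larger SD within groups. With 1 library left out the fitted difference ranged from -0.44 without KO replicate 4 to -1.08 without WT replicate 1. The latter lies beyond the difference within any litter, as those fits kept the removed terms.

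Arrdc1 (ENSMUSG00000026972; chromosome 2, 24925352 to 24935252 on the minus strand) sits at the plasma membrane, where it recruits Tsg101 and drives the budding of small vesicles. Its levels were 4.33, 4.28, 4.26, 4.05 and 4.29 CPM in KO replicates 1 to 5, and 4.67, 4.85, 4.74, 4.76 and 5.03 CPM in WT replicates 1, 3, 4, 5 and 6. The groups did not overlap, and the libraries of each group lay close together: 85.3% of tested genes had a larger SD within groups. Means were 4.24 ± 0.11 and 4.81 ± 0.14 CPM for KO and WT (SD, n = 5 each). The log2 difference was small, at -0.18, and all litters lay below 0 (-0.12 for 108, -0.17 for 110 and -0.23 for 112). The fit widens the error of such an even gene toward that of genes of like level, to an SE of 0.11 (95% interval -0.42 to 0.06); with the removed terms uncounted the SE was 0.05. With 1 library left out the difference ran from -0.25 to -0.15.

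Arrdc3 (ENSMUSG00000074794; chromosome 13, 80883384 to 80896042 on the plus strand) is an endosomal adaptor known for its part in the trafficking of beta-adrenergic receptors. The noncoding gene 1700023H06Rik overlaps it on the opposite strand. It measured 48.3, 46.2, 46.35, 37.85 and 45.9 CPM in KO replicates 1 to 5 and 42.5, 49.0, 44.25, 46.8 and 55.35 CPM in WT replicates 1, 3, 4, 5 and 6. KO replicate 4 was the lowest library and WT replicate 6 the highest, and the others lay among each other. The log2 difference was -0.08 (SE 0.10, 95% interval -0.30 to 0.13). Litter 108 gave 0.15, litter 110 gave -0.01 and litter 112 gave -0.29. In fits with 1 library left out, which kept the removed terms, the value was 0.02 without KO replicate 4 and 0.02 without WT replicate 6. Without WT replicate 1 it was -0.34, beyond the difference within any litter.

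**Figure D2:**
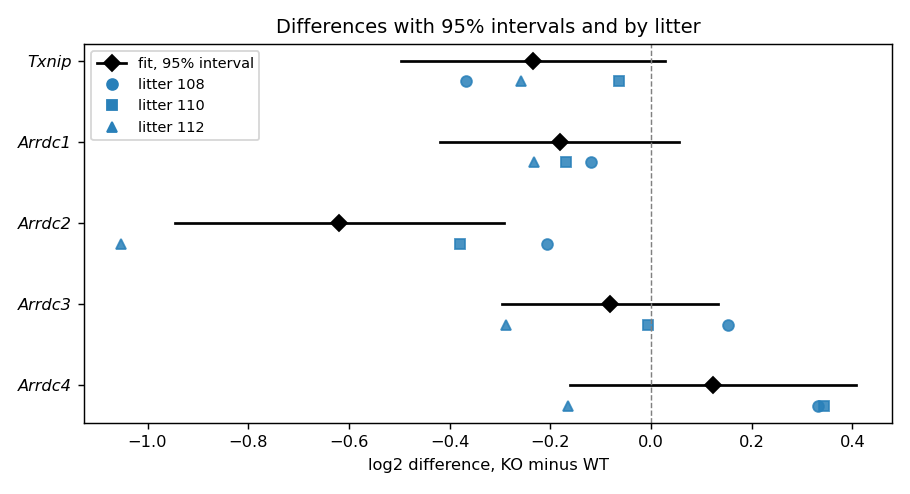
Log2 difference, KO minus WT (x axis), of each member: the black diamond and line give the fit over 10 libraries with its 95% interval, and the blue markers below give the difference of means within each litter. The litters of Arrdc2 spread from -1.05 to -0.21, and those of Arrdc3 and Arrdc4 fall on both sides of 0.

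Seen by library, KO replicate 4 was the lowest KO library for Arrdc1, Arrdc2, Arrdc3 and Arrdc4 and the highest for Txnip. WT replicate 6 was the highest WT library for Arrdc1, Arrdc2 and Arrdc3, and WT replicate 1 the lowest for these 3. In Arrdc4 the highest WT library was replicate 5 and the lowest replicate 4. In the fit without KO replicate 4, which kept the removed terms, the differences of Arrdc1 and Arrdc2 were -0.15 and -0.44. With that library they were -0.18 and -0.62. The adjusted values leave the libraries few directions in which to vary, which all genes share.

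**Figure D3:**
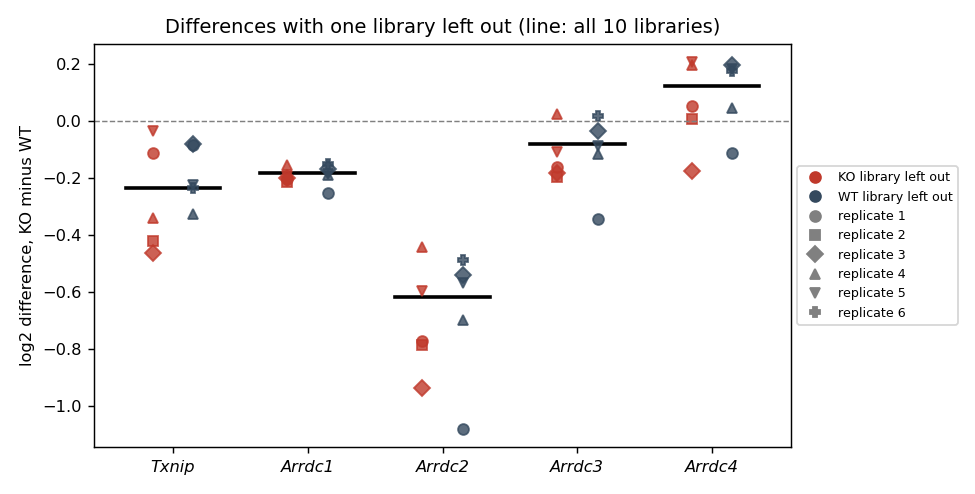
Log2 difference, KO minus WT (y axis), of each member with 1 library left out at a time, coloured by the label of the library left out and shaped by its replicate number; black lines give the value over 10 libraries. Arrdc1 and Arrdc2 stay below 0 throughout, Txnip approaches 0 without KO replicate 5, and Arrdc3 and Arrdc4 fall on both sides. Each value comes from a fit that kept the removed terms, so it is not a plain difference of the remaining means.

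Levels of different genes were compared as CPM per kilobase of the longest annotated transcript. Txnip came to 197 ± 28.1 CPM per kb under the KO label and 231 ± 25.2 under the WT label (SD, n = 5 each), and ranked 141 of 13320 genes with a length. Arrdc2 had 29.1 ± 4.54 and 44.7 ± 7.61 CPM per kb under the KO and WT labels, Arrdc3 10.9 ± 0.99 and 11.5 ± 1.21, Arrdc1 2.55 ± 0.07 and 2.89 ± 0.08, and Arrdc4 1.62 ± 0.15 and 1.49 ± 0.17. No 2 neighbours in that order overlapped in any library. The order was the same with the mean length of each gene's transcripts. Txnip made up 81.5 ± 3.49% of the per-kilobase sum of the 5 genes under the KO label and 79.2 ± 2.48% under the WT label (SD, n = 5 each), and Arrdc2 12.2 ± 2.53% and 15.3 ± 2.07%; both shares overlapped between the groups. Stretches of 31 bases shared with transcripts of other genes, each read in its own sense direction, were absent from Arrdc1, Arrdc2 and Arrdc4. They made up 0.0937% of Txnip and 0.0477% of Arrdc3, so sense reads had little room to be split between copies. Overlaps with genes on the opposite strand, as at Txnip and Arrdc3, were not compared.

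**Figure D4:**
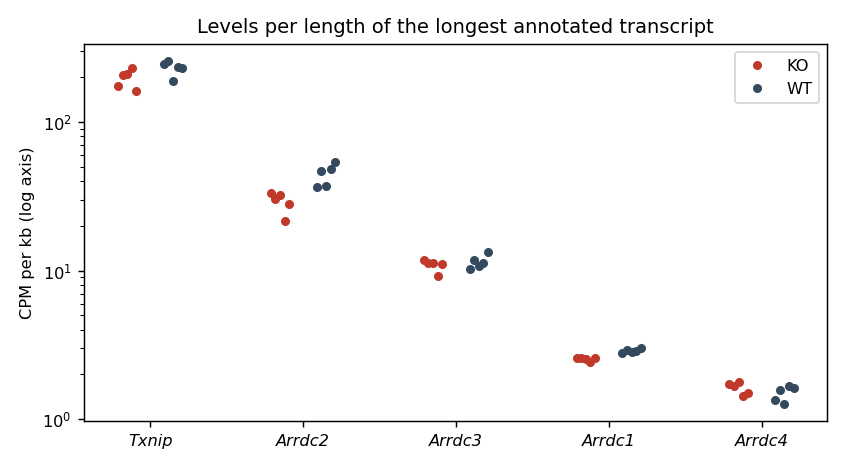
CPM per kilobase of the longest annotated transcript (y axis, log scale) for the 5 alpha-arrestin genes, 1 point per library, labelled KO left of WT. Txnip lies far above the others, and Arrdc1 and Arrdc4 lie below 4 CPM per kb.

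Genes around the family were described from 10 lists chosen with earlier results of these data known. Of 131 such genes tested, 2 passed the threshold, both higher under the KO label, against 0.335% of all genes (0.27% higher). Thioredoxin, which Txnip binds, and its partners held no gene past the threshold among 17. Their median log2 difference was -0.03, with 14 of 17 below 0, against 51.4% of all genes. Thioredoxin itself, Txn1, had 24.4 ± 0.73 CPM under the KO label and 27.2 ± 1.20 under the WT label, a log2 difference of -0.16 (limma adjusted p = 0.468). Thioredoxin reductase 1, Txnrd1, which restores reduced thioredoxin, had 84.3 ± 0.998 and 75.7 ± 1.62 CPM, a difference of 0.16 (limma adjusted p = 0.343). With the removed terms uncounted these 2 were the ones past the threshold, 1 in each direction, against 8.62% of all genes. At an unadjusted p under 0.05 they were again the only 2. The share of all genes at that unadjusted cut is not given, so nothing is read from counts at it, here or in the lists below.

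None of 14 genes of Txnip binding and turnover passed (median 0.04). Itch, the Nedd4 family ligase that marks Txnip for destruction, differed by 0.17 (22.3 ± 0.29 CPM against 19.8 ± 0.70 under the KO and WT labels, limma adjusted p = 0.419), and the chaperone gene Hsp90aa1 by 0.38 (adjusted p = 0.0642). Nor did any of the 10 Nedd4 family ligases and their Ndfip adaptors pass (median -0.02). Nedd4l, which also controls sodium channels, differed by 0.25 (limma adjusted p = 0.18) and Smurf2, a ligase of TGF-beta signalling, by 0.17 (adjusted p = 0.345). At an unadjusted p under 0.05 there were 3 genes in each of these lists, all higher, with no share of all genes to set beside them. Nedd4l, Smurf2, Itch and Hsp90aa1 were past the threshold with the removed terms uncounted, all higher under the KO label. That fit called 8.62% of all genes (5.15% higher), and genes of lists described below passed it too. The Mondo and Mlx network and the carbohydrate genes each had 1 higher and 1 lower. In the FoxO and fasting list 4 were higher, and in the glucocorticoid list 3 were higher and 1 lower. The ESCRT list had 1 lower, and the cargo and other arrestin-fold lists had 0.

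Regulators and targets of the glucose response did not pass either. Among 10 genes of the Mondo and Mlx network (median -0.00), Mlxipl, which encodes ChREBP, had 78.2 ± 3.26 CPM under the KO label and 67.3 ± 4.43 under the WT label (log2 difference 0.22, limma adjusted p = 0.313), and Mnt, a repressor that pairs with Mlx or Max, differed by 0.30 (adjusted p = 0.38). Mlxip, which encodes MondoA, differed by -0.09. Of 12 genes induced by carbohydrate (median 0.03), Hk2, which phosphorylates glucose on entry, had 491 ± 36.6 and 391 ± 36.2 CPM under the KO and WT labels (0.33, limma adjusted p = 0.208), and the transketolase gene Tkt differed by -0.27 (adjusted p = 0.36). At an unadjusted p under 0.05 there were 3 genes in each list, all higher in the first and 2 of them higher in the second. The share of all genes at that cut is not given, so nothing is read from these counts.

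FoxO factors and genes raised by fasting held both genes past the threshold among 19 (median 0.05). In this list 15 lay above 0, while 51.4% of all genes lay below 0. Fbxo32, the muscle ubiquitin ligase atrogin-1, had 350 ± 11.96 CPM under the KO label and 258 ± 7.58 under the WT label (log2 difference 0.44, limma adjusted p = 0.0129). Klhl38, a Kelch protein gene reported to rise in muscle atrophy, had 47.0 ± 1.92 and 34.3 ± 2.44 CPM (0.46, limma adjusted p = 0.0332). With 1 library left out, Klhl38 was past the threshold only without WT replicate 3 or 4, and its adjusted p reached 0.574 without WT replicate 1. Fbxo32 missed it without KO replicate 2 (adjusted p = 0.204), KO replicate 3 (0.103), WT replicate 1 (0.19) or WT replicate 6 (0.114), and passed it in the 6 other fits. None of 20 genes that respond to glucocorticoids passed (median 0.03). The factor gene Zbtb16 differed by 0.33 (limma adjusted p = 0.214) and Pik3r1, a regulatory subunit of PI3-kinase, by -0.29 (adjusted p = 0.253). Of the 20, 4 had an unadjusted p under 0.05, 2 in each direction, with no share of all genes to set beside them.

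Cargo and trafficking partners stayed short of the threshold as well. In 8 reported cargo genes (median 0.02) the closest were Notch1 (log2 difference 0.27, limma adjusted p = 0.355) and the iron transporter Slc11a2 (0.12, adjusted p = 0.672); Slc2a4, which encodes GLUT4, differed by 0.08 and Slc2a1, which encodes GLUT1, by -0.13. Of 18 genes of the ESCRT machinery that Arrdc1 uses (median -0.03), Mvb12a differed by -0.21 (limma adjusted p = 0.427) and Mvb12b by 0.10 (adjusted p = 0.688), and Tsg101 by -0.09. In 5 other genes of the arrestin fold (median -0.03), the beta-arrestin genes Arrb2 and Arrb1 differed by 0.13 and 0.06 (limma adjusted p = 0.762 and 0.866). At an unadjusted p under 0.05 there was 1 cargo gene (higher), 1 ESCRT gene (lower) and 0 other arrestin-fold genes. No share of all genes can be set beside these counts either.

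**Figure D5:**
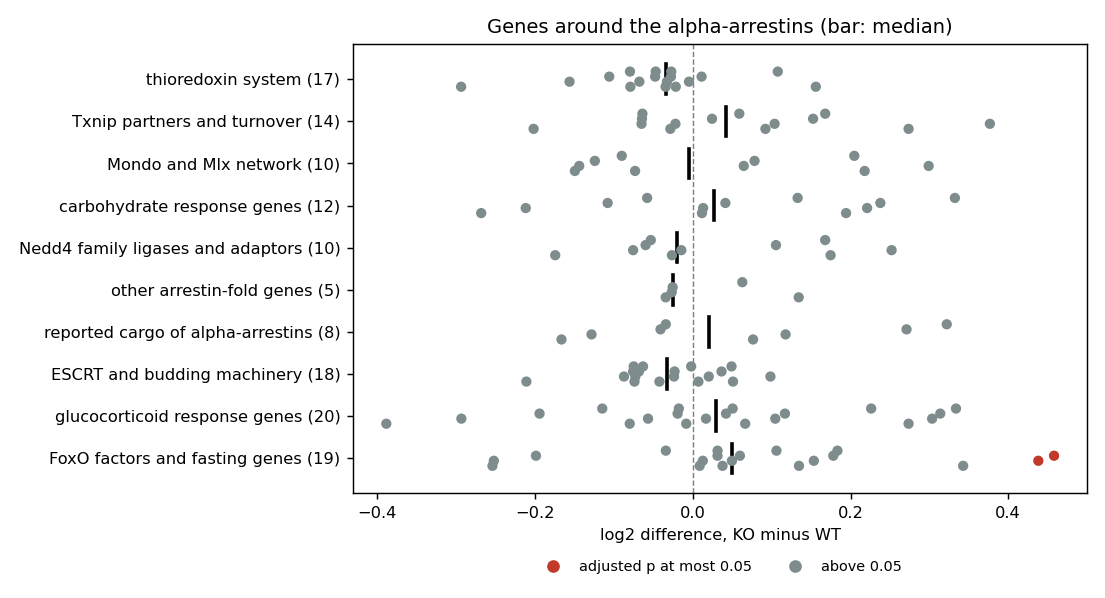
Log2 difference, KO minus WT (x axis), of each gene tested in 10 lists around the alpha-arrestins (number tested in brackets), with the median of each list as a black bar. Red marks an adjusted p of at most 0.05, which Fbxo32 and Klhl38 in the FoxO and fasting list reached.

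Markers of fat cells were also looked at. All 7 adipocyte markers tested had a log2 difference below 0 (median log2 difference -0.89), and 0 of 7 passed the threshold of the limma fit. At an unadjusted p under 0.05 there were 6, a cut for which the share of all genes is not given. With the removed terms uncounted 5 passed, against 8.62% of all genes. The summed level of the 8 markers measured was 71.1 to 81.2 CPM in the libraries labelled KO and 82.9 to 99.8 CPM in those labelled WT. Most of that sum was Fabp4, with 62.7 ± 2.96 CPM under the KO label and 64.6 ± 1.86 under the WT label (SD, n = 5 each). Its log2 difference was only -0.05, and its groups overlapped. The other markers were scarcer, and Lep had the largest difference of the list (-2.21). The leptin gene Lep ranged from 0.414 to 1.18 CPM under the KO label and from 1.92 to 6.24 under the WT label, and Adipoq from 1.29 to 2.49 and from 2.46 to 5.28. Their highest library was WT replicate 4, in which Arrdc2 and Arrdc1 were each the second lowest of their group. In bulk muscle fewer cells of a type and less RNA per cell cannot be told apart, and the part of fat cells in the Arrdc2 difference was not tested. Markers of endothelial cells had a median of 0.01, of fibroblasts -0.11, of tendon -0.20, of macrophages -0.10, of satellite cells -0.14, of Schwann cells -0.14 and of red blood cells -0.04, with 0 genes past the threshold of the limma fit in any of them and at most 1 gene in each at an unadjusted p under 0.05.

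The genes whose pattern over the 10 libraries was most like each member's were named by Pearson correlation among 10417 genes with a mean of at least 1 log2 CPM. For Txnip they were Aimp2, Slc50a1 and Fgf13 (each r = 0.997), for Arrdc1 Dnajc9, Pramel12 and Erdr1 (r = 0.999, 0.997 and 0.995), and for Arrdc2 Dcaf13, Adcy5 and Rab5c (r = 0.998, 0.998 and 0.996). Arrdc3 was nearest to Rnf111, Hax1 and Art5 (r = 0.999, 0.996 and 0.995), and Arrdc4 to Anapc1, Kifc3 and Magi3 (r = 0.998, 0.995 and 0.995). High values are common here, because the adjusted values of all genes vary in few directions: between 51 and 94 genes reached r = 0.95 with a given member.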

How the data were processed

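Per the labels' protocols, TRIzol-extracted RNA went into oligo-dT, strand-specific BGI/MGI libraries. The submitters' processing notes name fastp, kallisto and limma without versions; the sources used here do not describe build, annotation or the adjustment. Values in the deposited table are adjusted log2 CPM, and converted back they sum to between 960166 and 1016398 per library. Whole counts cannot be recovered from adjusted values, so depth is unknown.

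The members and gene lists were chosen with earlier results of these data known. Differences were fitted with limma 3.58.1 in R 4.3.3 (trend on mean expression, two-sided) on the 12223 genes with a mean of at least 0 log2 CPM, with genotype, litter and the 3 directions of the residual space in which no gene varied as terms. A fit without those 3 terms counts 6 residual degrees of freedom where 3 remain. No pseudocount was added. The steps were tested on simulated data. From each list the text names up to 4 genes past the threshold, or the 2 with the smallest p; for each member it names the 3 most correlated genes; Lrtm1 is the targeted gene. Mlxip, Slc2a4, Slc2a1, Tsg101, Gm15441, Fabp4, Lep and Adipoq were named outside that rule. Lengths and positions came from GENCODE M21 (GRCm38), matched by Ensembl identifier. Alternatives are given at the end.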

Additional observations from a re-analysis of the deposited data

Results flagged for a closer look

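KO replicate 4 stood apart from the other libraries labelled KO for 2 of the 5 members. Arrdc1 was at 2.02 log2 CPM in it, with the nearest KO library at 2.09, a gap of 0.787 of the group's range. Arrdc3 was at 5.24 log2 CPM, with the nearest at 5.52, a gap of 0.791 of the range. Both gaps exceed Dixon's 95% critical ratio of 0.71 for 5 samples. That ratio assumes 5 independent values, but the adjusted values vary in few directions, which all genes share. The usual rate of about 1 flag in 20 by chance therefore need not hold for the 10 groups of values looked at. The 2 flags come from the same library and are not separate observations.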

How the results depend on the processing

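The 41 genes past the threshold became 1054 with the removed terms uncounted, 517 with no litter term, 2608 with genotype alone, 24 after quantile normalization and 1 without the trend, and between 1 (without WT replicate 6) and 54 when 1 library was left out. It was 11, 21 and 17 without KO replicates 2, 3 and 5, and 5 and 24 without WT replicates 1 and 3. In that order of settings, the 2 genes past the threshold in the lists became 19, 8, 39, 1 and 0, and 0 to 3 with 1 library left out (0 without KO replicate 2, WT replicate 1 or WT replicate 6, and 1 without KO replicate 3 or 4). With the replicate number as a block (replicate block) 128 genes passed, 4 of them in the lists. The numbers do not pair the libraries: replicate 4 is in litter 112 for KO and 110 for WT, and deviations of same-numbered libraries correlated from -0.846 to 0.452. Over the 12 settings that kept all libraries the member differences moved by less than 1 SD, from -0.25 to -0.23 for Txnip, -0.19 to -0.15 for Arrdc1, -0.63 to -0.56 for Arrdc2, -0.10 to -0.04 for Arrdc3 and 0.11 to 0.14 for Arrdc4. Settings that only dropped terms, or changed the expression minimum or the error model, could not move these differences. With 1 library left out the differences ran from -0.46 to -0.034, -0.25 to -0.15, -1.08 to -0.44, -0.34 to 0.024 and -0.17 to 0.21. Those fits kept the removed terms, so these are not plain differences of the remaining means. With the mean transcript length in place of the longest, levels over all libraries were 469 CPM per kb for Txnip, 5.03 for Arrdc1, 75.2 for Arrdc2, 19.7 for Arrdc3 and 2.42 for Arrdc4, against 214, 2.72, 36.9, 11.2 and 1.56. The Lrtm1 call was lost in 10 of 22 alternatives, with adjusted p from 0.000229 to 0.639. The cause of these changes was not tested, except that fewer terms count more residual degrees of freedom and a left-out library leaves fewer samples.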

Other observations

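The spaced pair found before Txnip was also present in the promoter windows of 13 other genes, of which 7 were tested. Their log2 differences ran from -0.12 (Rbbp4) to 0.19 (Nfkb2) with a median of 0.12, and none passed the threshold.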
